A study of Mus musculus with 6 samples.

Results

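The 6 mouse genes Strbp, Tulp4, Hnrnpu, Acer3, Rps6kc1 and Ppp1cb are among the hosts of the most abundant exonic circular RNAs (circRNAs) in libraries of prefrontal cortex. The hosts were chosen by the mean level of their circles over all 6 libraries, so the rank of a circle is the criterion of choice and not a finding. All circRNA entries whose gene name or named isoform belongs to one of these genes were taken, which gave 64 of 17369 entries, 61 of them exonic and 3 of the intronic class ciRNA, from 6 of 4596 host genes. The linear side of the same genes comprised 84 of 175010 isoforms. Total RNA without ribosomal RNA was sequenced from the prefrontal cortex of male C57BL/6 mice aged 5 weeks when the study began and 30 weeks when tissue was taken. The control group (3 samples) received water by daily gavage for 6 months, labelled as 0 mg/kg body weight of polystyrene nanoparticles (PS NPs), and the PS_high group (3 samples) received 50 mg/kg by the same route. All animals were of the same strain and sex, and the labels name no transgene or second treatment. Nothing in the labels says whether a sample is 1 animal or a pool, so the p-values below bear on these samples only. Those of the circle fits rest mostly on a shared spread, as given below.

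A circRNA forms when the splice donor at the end of an exon is joined to an acceptor upstream of it instead of downstream, which closes 1 or more exons into a ring without ends. Rings escape the exonucleases that degrade linear RNA, and they accumulate in long-lived cells such as cortical neurons. A read across the back-splice junction is the evidence for a circle, whereas reads inside its exons cannot be told apart from linear RNA and count towards the linear host. The hosts have unrelated roles. Strbp encodes an RNA-binding protein that recognises RNA duplexes. Tulp4 encodes a tubby-like protein with a SOCS box, Hnrnpu an abundant nuclear RNA-binding protein of the nuclear scaffold, and Acer3 an alkaline ceramidase that splits ceramide into sphingosine and a fatty acid. Rps6kc1 encodes a protein with a kinase domain related to that of the ribosomal S6 kinases, and Ppp1cb encodes the beta catalytic subunit of protein phosphatase 1.

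The libraries held 15658 to 19957 back-splice reads and 53344395 to 66004386 linear estimated counts each. Markers of cortical excitatory neurons, interneurons, astrocytes, oligodendrocytes, microglia and endothelium (25 of 25 genes) passed the filter of a mean of at least 0.5 FPKM. The summed FPKM of 5 choroid plexus markers ranged from 6.05 to 238 in control and from 10.6 to 469 in PS_high, and that of 5 red cell markers from 152 to 383 in control and from 89.3 to 256 in PS_high. The 4 oligodendrocyte markers summed to 196 to 224 FPKM in control and to 158 to 194 FPKM in PS_high, so that all PS_high libraries lay below all control libraries, which was so for no other marker list of a cell type above the filter. The part of these cell types in the levels below was not tested.

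In every host 1 circle carried most of the back-splice reads. The leading circle of Strbp (circRNA4811) spanned chr2:37580674-37647285 on the minus strand, a stretch of 66.6 kb with 17 exons. Its 5′ edge coincided with the annotated 5′ end of ENSMUST00000028279, which also has 17 exons. The second circle of Strbp, mmu_circ_0009939, had the same 5′ edge. It was assigned to ENSMUST00000072186, which extends upstream of that edge to position 37703275. The leading circle of Tulp4 (circRNA4139) was the most compact, with 2 exons in 1.95 kb at chr17:6137212-6139156 on the plus strand. That of Hnrnpu (circRNA3533) joined 3 exons in 2.18 kb at chr1:178323134-178325313 on the minus strand. The Acer3 circle (mmu_circ_0001600) held 6 exons in 22.3 kb at chr7:98243949-98266247 on the minus strand, and the Rps6kc1 circle (mmu_circ_0000132) 4 exons in 28.0 kb at chr1:190871592-190899571 on the minus strand. The Ppp1cb circle (mmu_circ_0001331) held 7 exons in 13.1 kb at chr5:32478066-32491189 on the plus strand. Coordinates are those of the deposited table; no source used here names its genome build.

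For 4 of the 6 leading circles, those of Acer3, Ppp1cb, Rps6kc1 and Hnrnpu, the deposited data list numbers in a field named for flanking introns. They were read here as exon numbers of the named isoform. In all 12691 exonic entries with such numbers and a multi-exon isoform, there were as many numbers as exons. The Acer3 circle ran from exon 2 to exon 7 of the 11-exon coding isoform ENSMUST00000033020. The Ppp1cb circle ran from exon 2 to exon 8 of the 9 exons of ENSMUST00000201360, so that the first and the last exon of this isoform stayed out of the ring. The Rps6kc1 circle took exons 3 to 6 of the 13 exons of ENSMUST00000159624, and the second circle of Strbp (mmu_circ_0009939) took exons 2 to 10 of the 18 exons of ENSMUST00000072186. Of all exonic entries with exon numbers and a multi-exon isoform, 3173 of 12691 (25.0%) began at exon 2, against 42 of 73 (57.5%) among entries with a mean of at least 20 reads. Among the entries of the 6 hosts it was 17 of 39 (43.6%). None of these 39 held exon 1, but this was so for nearly all entries. Exon 1 was held by 9 of the 12691 entries (0.071%) and by 0 of the 73. The leading circles of Strbp and Tulp4 had no such numbers and were not among the 39. The Hnrnpu circle differed: it took exons 4 to 6 of the 6 exons of ENSMUST00000188044, a short isoform of the nonsense-mediated decay class, and thus held the last exon of the isoform it is assigned to. Only 14 of the 12691 entries (0.11%) did so. The 3′ edge of the Hnrnpu circle, at 178323134, coincided with the annotated 3′ end of ENSMUST00000188044. It lay downstream of the 3′ end of the coding ENSMUST00000037748 (178324343), whereas ENSMUST00000161769 extends past it to 178323074. Whether a splice donor lies at this edge was not examined.

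The isoform that the table names for a circle was often not an isoform with much linear RNA. The isoform named for the Acer3 circle, ENSMUST00000033020, held 55.6% of the estimated counts of its gene, and the one named for the Strbp circle, ENSMUST00000028279, held 36.2%. The isoforms named for the Ppp1cb, Rps6kc1 and Hnrnpu circles held 0.251%, 0.455% and 0.0362%, and the annotation puts all 3 in the nonsense-mediated decay class. The isoform named for the Tulp4 circle, ENSMUST00000149756, had no counts in any library. Which transcripts gave rise to the circles was not measured.

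**Figure D1:**
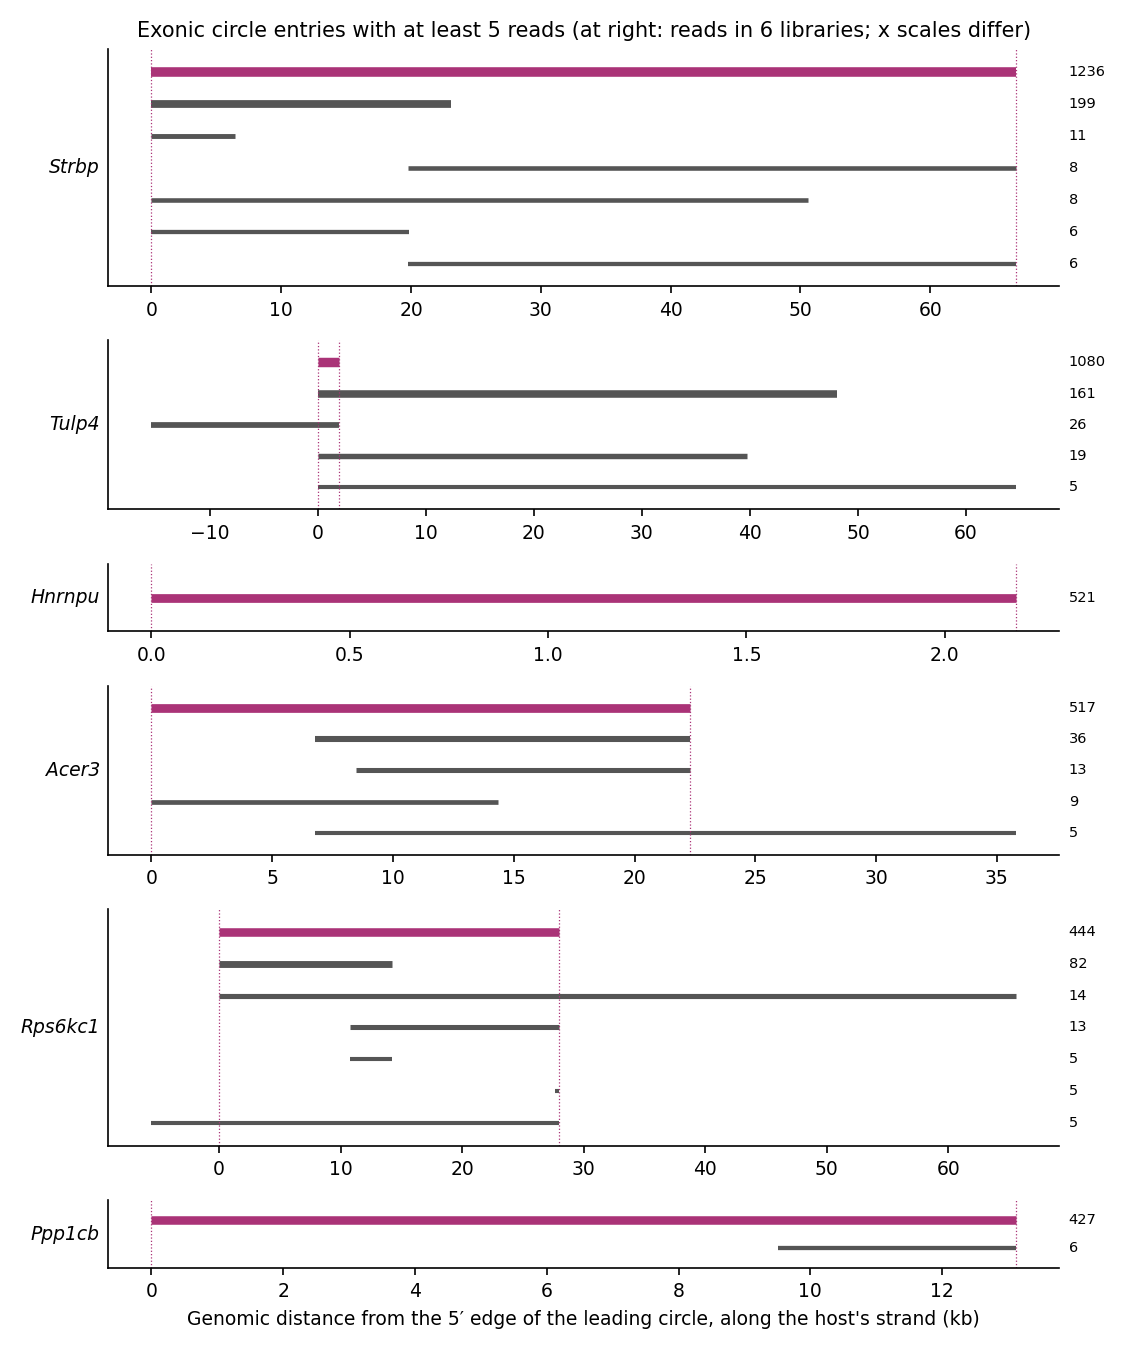
Exonic circle entries of each host with at least 5 reads over the 6 libraries, drawn as genomic spans. The horizontal axis is the distance in kb from the 5′ edge of the leading circle along the host's strand, with a scale of its own in each panel; purple bars are the leading circles, grey bars the other entries, bar thickness grows with the logarithm of the reads, dotted lines mark both edges of the leading circle, and the number at the right is the reads summed over the libraries (1236 for Strbp to 427 for Ppp1cb). Most grey bars start or end on a dotted line.

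Minor circles mostly reused an edge of the leading one. Among the 61 exonic entries, 55 were not the leading circle of their host. Of these, 26 shared its upstream (acceptor) edge, 14 shared its downstream (donor) edge and 15 shared neither, allowing 1 base of difference. Per host, the entries that shared an edge were 77.8% for Strbp, 55.6% for Tulp4, 66.7% for Acer3 and 72.7% for Rps6kc1, and they were the single minor entry of Hnrnpu and all 4 minor entries of Ppp1cb. By reads, 95.4% of the 714 back-splice reads of minor circles belonged to entries that shared an edge. In 186 other hosts with at least 100 reads and 3 entries, the median share of minor entries on an edge of the leading circle was 42.9% (interquartile range 24.5% to 64.3%). This difference is a description and was not tested.

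The acceptor edge was the more used one in Strbp and Tulp4. In the 186 other hosts the median was 25.0% of minor entries on the acceptor edge and 11.1% on the donor edge. In Strbp 10 of 18 minor entries with 234 of 256 minor reads used the acceptor of circRNA4811, and in Tulp4 4 of 9 entries with 188 of 222 reads used that of circRNA4139. Most of these reads came from 1 circle per host, mmu_circ_0009939 of Strbp (199 reads) and circRNA4141 of Tulp4 (161 reads). Rps6kc1 had 4 entries on each edge, but 101 reads lay on the acceptor and 26 on the donor. Acer3 showed the opposite order, with 51 reads on the donor edge and 21 on the acceptor edge. The reads per entry were few outside the second circles, and 28 of the 64 entries were seen in 1 library only. Entries with reads in all 6 libraries numbered 9, namely the 6 leading circles, mmu_circ_0009939 of Strbp, circRNA4141 of Tulp4 and mmu_circ_0000133 of Rps6kc1.

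Some junctions appear in the table as a pair of entries that start 1 base apart. This was so for 1173 exonic junctions of the whole table and for 4 junctions of the 6 hosts (1 in Strbp, 2 in Acer3 and 1 in Ppp1cb). Of 4558 library values of such pairs with any reads, both entries had reads in 10, so that a library nearly always reported a junction under 1 of its names. None of the leading circles was affected.

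The levels of the leading circles fell into 2 tiers, given here as a description because the hosts were chosen on them. Levels are given as SRPBM, the deposited signal, which equals the back-splice reads times 1 constant per library; 1 read was worth 7.52 to 9.86 SRPBM. The Strbp circle averaged 1730.1 SRPBM and ranked 2 among the exonic circles, with 235, 171 and 248 reads in the control libraries and 194, 186 and 202 in the PS_high libraries. The Tulp4 circle averaged 1520.4 SRPBM, with 186, 154 and 193 reads in control, against 213, 169 and 165 in PS_high. Their ranges over the 6 libraries overlapped (1369.5 to 1989 and 1233 to 1882 SRPBM), so their order is not beyond the spread. No library of the remaining hosts of the set reached these levels. Hosts outside the set had circles above and between the 2 tiers, as given below.

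The other leading circles formed the lower tier, in which all neighbours overlapped. The Hnrnpu circle averaged 738 SRPBM, with 101, 66 and 60 reads in control, against 133, 87 and 74 in PS_high. The Acer3 circle averaged 725 SRPBM, with 89, 83 and 95 reads in control, against 116, 67 and 67 in PS_high. In both, PS_high replicate 1 was the highest library, and the groups overlapped. The Rps6kc1 circle averaged 624 SRPBM, with 67, 63 and 98 reads in control, against 103, 58 and 55 in PS_high. The Ppp1cb circle averaged 598 SRPBM, with 58, 86 and 76 reads in control, against 80, 54 and 73 in PS_high. The highest Rps6kc1 library was again PS_high replicate 1, and the lowest was PS_high replicate 3.

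**Figure D2:**
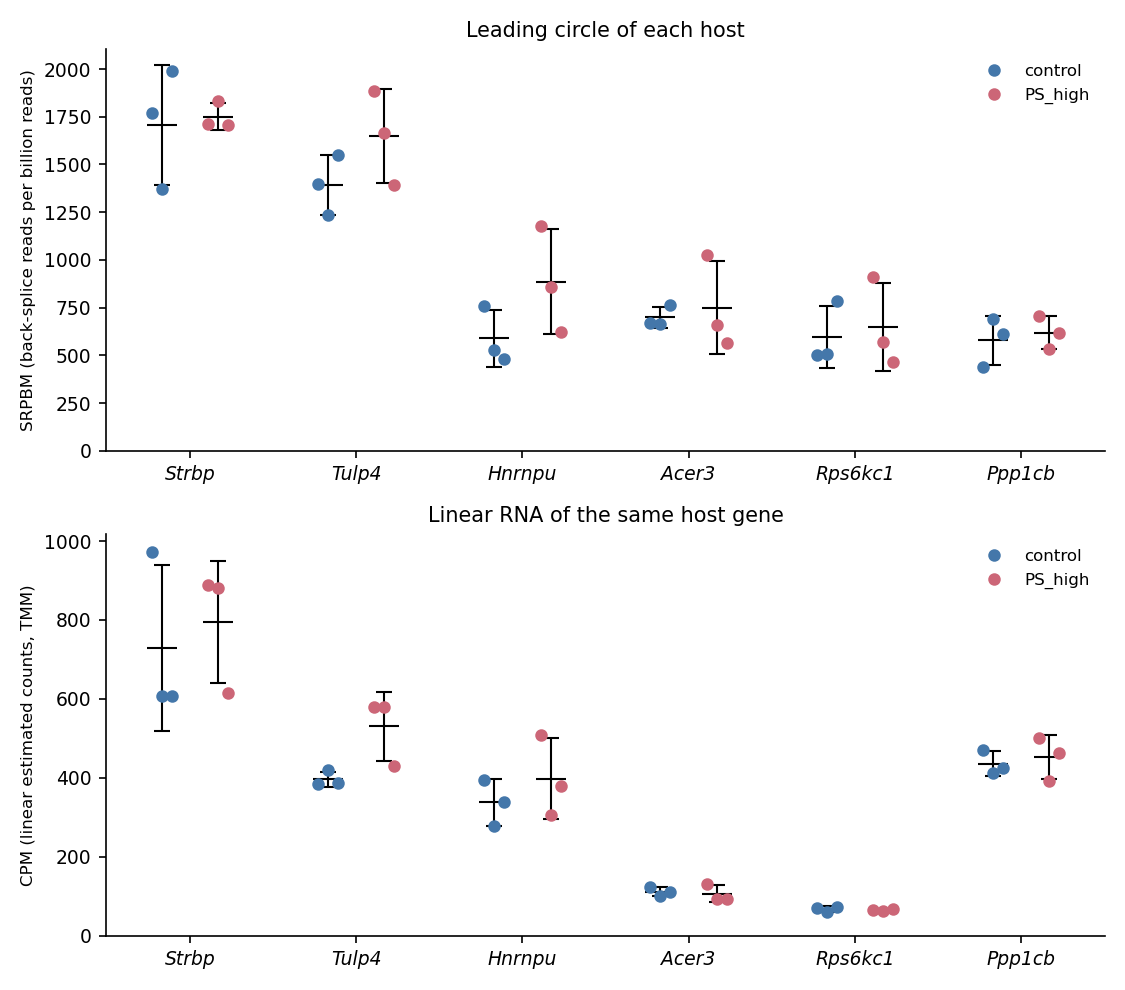
Levels of the leading circle (upper panel, SRPBM) and of the linear RNA of the same gene (lower panel, CPM of estimated counts with TMM scaling) in each library. Blue points are the 3 control libraries, red points the 3 PS_high libraries, the long tick is the group mean and the bar 1 SD; CPM depends on transcript length and is comparable within a gene only. Control and PS_high points overlap in every host except for the linear RNA of Tulp4, where the highest control value is 419 and the lowest PS_high value 430.0 CPM.

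For scale, the exonic circles at ranks 1, 4 and 5 belonged to the Cdr1as locus (listed as C230004F18Rik, 2234 SRPBM), Slc8a1 (1021 SRPBM) and Unc79 (872 SRPBM), which are no members of the set. The circle of Ppp1cb at rank 9 was the last one inside, and Pvt1 (582 SRPBM) and Fat3 (573 SRPBM) followed just outside. The leading circles of the 6 hosts held 2 to 17 exons with a median of 5, and none was a circle of 1 exon. Among the 14 other circles of the 20 most abundant, exon counts ran from 1 to 7 with a median of 2.5, and 6 were circles of 1 exon. The circles at ranks 1 and 4, which are outside the set, had 1 exon each. The part of the choice of hosts in this difference was not tested, and it is given as a description.

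Together the 6 leading circles took 3.55% to 4.22% of the back-splice reads of a library. The share was 3.78% (95% Wilson interval 3.52 to 4.05), 3.55% (3.29 to 3.83) and 3.86% (3.60 to 4.13) in the control libraries. It was 4.22% (3.95 to 4.51), 3.97% (3.67 to 4.28) and 3.67% (3.40 to 3.96) in the PS_high libraries. The group means were 3.73% ± 0.16 (SD, n = 3) and 3.95% ± 0.28 (SD, n = 3), and the groups overlapped. These intervals cover counting error only.

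Over all libraries, the leading circle held from 76.8% (Rps6kc1) to 99.4% (Hnrnpu) of the exonic circle reads of its host. In the 186 other hosts the median was 45.4% (interquartile range 31.5% to 70.4%). The hosts were chosen on the level of their circles, and the part of this choice in the share of the leading circle was not tested. This share is given as a description. It was lowest in Rps6kc1, where it ranged from 69.8% to 85.8% of the host's circle reads over the libraries, and highest in Hnrnpu, with 97.1% to 100%. The second circles were rarer. mmu_circ_0009939 of Strbp had 34, 24 and 41 reads in control, against 38, 37 and 25 in PS_high. circRNA4141 of Tulp4, with 3 exons in 48.1 kb from the same acceptor as the leading circle, had 28, 17 and 28 reads in control, against 25, 35 and 28 in PS_high. mmu_circ_0000133 of Rps6kc1 had 12, 14 and 20 reads in control, against 11, 15 and 10 in PS_high, and circRNA4071 of Acer3 had 10, 4 and 7 in control, against 10, 0 and 5 in PS_high. No second circle separated the groups.

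The hosts themselves ranged from abundant to modest genes. By FPKM, which accounts for length, Hnrnpu was the highest with 91.8 (range 74.9 to 103 over the libraries) and ranked 210 among 20272 genes. Ppp1cb with 54.3 (45.1 to 78.4), Strbp with 52.7 (41.8 to 66.7) and Tulp4 with 41.8 (31.2 to 57.9) overlapped each other and ranked 480, 510 and 739. Rps6kc1 with 13.1 (11.1 to 15.0) and Acer3 with 11.6 (10.4 to 13.5) overlapped each other, lay below all libraries of the other hosts, and ranked 3603 and 4122. The order of the circles was thus not the order of the linear RNA.

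Relative to linear RNA, the circle of Acer3 stood above those of Tulp4, Strbp, Ppp1cb and Hnrnpu in every library. The ratio of mean SRPBM to mean FPKM was 62.6 for Acer3 and 47.5 for Rps6kc1, followed by 36.3 for Tulp4, 32.8 for Strbp, 11.0 for Ppp1cb and 8.04 for Hnrnpu. Over the 83 exonic circles with a mean of at least 20 reads and a host above the FPKM filter, the median ratio was 11.8. Acer3 and Rps6kc1 took places 4 and 6 of 83, Tulp4 and Strbp places 10 and 11, and Ppp1cb and Hnrnpu places 47 and 62. The numerator is the level by which the hosts were chosen, so high places partly restate the choice and are a description only. The ratio joins 2 scales and is a relative measure, not a number of circles per linear molecule. By library it ran from 53.4 to 75.7 in Acer3, from 30.9 to 82.1 in Rps6kc1, from 21.3 to 49.4 in Tulp4, from 26.5 to 45.5 in Strbp and from 5.08 to 11.4 in Hnrnpu. Rps6kc1 thus overlapped Acer3, Tulp4 and Strbp.

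**Figure D3:**
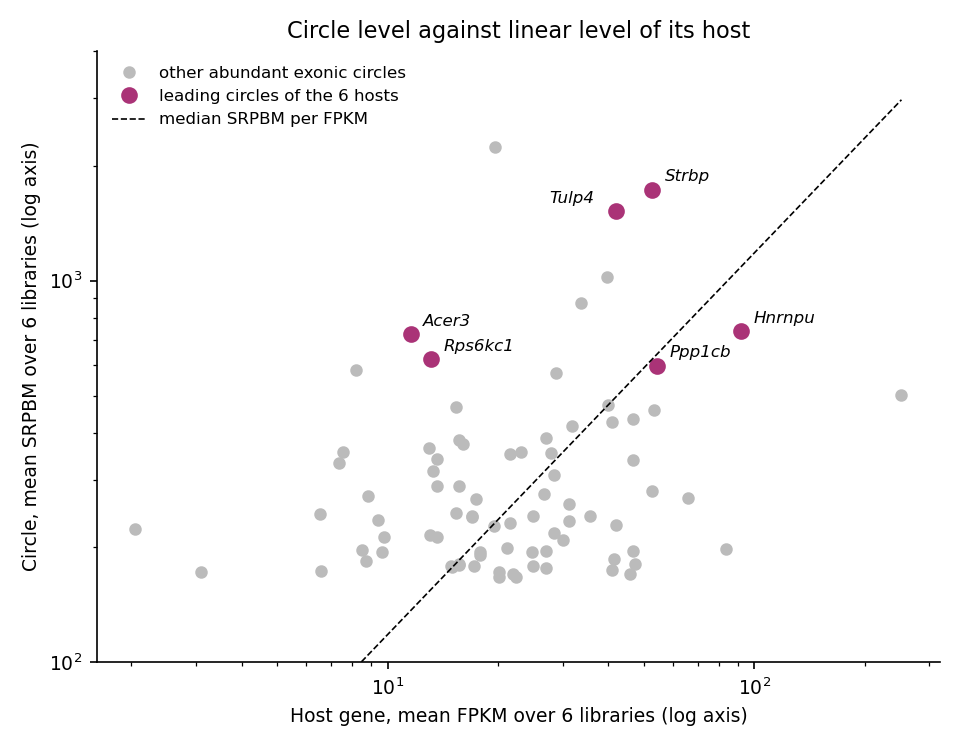
Mean SRPBM of 83 abundant exonic circles against the mean FPKM of their host gene, both over 6 libraries and both on log axes. Purple points are the leading circles of the 6 hosts, grey points other circles, and the dashed line is the median ratio of 11.8 SRPBM per FPKM. Acer3, Rps6kc1, Tulp4 and Strbp lie above the line, Ppp1cb on it and Hnrnpu below it.

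The ratio depended on which linear isoforms were counted. With annotated protein-coding isoforms alone, it was 207 for Acer3, 149 for Strbp and 122 for Rps6kc1. It was 110.0 for Tulp4, 78.1 for Hnrnpu and 12.7 for Ppp1cb. This put Strbp ahead of Rps6kc1 by the means only. By library it ran from 118 to 187 in Strbp and from 76.1 to 212 in Tulp4. In Rps6kc1 the lowest value was 62.5. Its highest had no meaning, since its main coding isoform had 0 counts in PS_high replicate 2. These ranges overlapped, so the order of these hosts is not beyond the spread. Hnrnpu moved most, by 9.71 times, and coding isoforms made up 10.3% of its summed FPKM. Short annotated isoforms without a full reading frame, the 869-base ENSMUST00000146362 and the 673-base ENSMUST00000134291, had 25.7 and 22.5 FPKM, against 9.45 FPKM for the coding ENSMUST00000037748. Ppp1cb moved least, by 1.15 times, with 86.6% of its FPKM in coding isoforms.

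Scaled to linear counts of the same gene, the back-splice reads gave the following values per library. Per 1000 linear counts, Rps6kc1 had 19.2, 21.0 and 24.9 reads in control, against 34.0, 21.9 and 16.0 in PS_high. PS_high replicate 1 was highest and PS_high replicate 3 lowest, and the means were 21.7 ± 2.9 (SD, n = 3) and 24.0 ± 9.2 (SD, n = 3). Acer3 had 14.7, 16.6 and 15.6 in control, against 19.0, 16.7 and 14.3 in PS_high. Hnrnpu had 5.20, 4.74 and 3.22 in control, against 5.60, 6.65 and 3.91 in PS_high. Tulp4 had 9.88, 7.33 and 9.09 in control, against 7.86, 6.80 and 7.67 in PS_high. The groups overlapped in these hosts, and also in Strbp (4.92 to 7.44 in control, 4.68 to 6.56 in PS_high) and Ppp1cb (2.50 to 4.17 and 3.14 to 3.41). Counts per gene grow with transcript length, so these values are compared within a host only.

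The comparison of PS_high with control asked whether nanoparticle exposure changed the circles of these hosts, their linear RNA or the balance of both. No circle, host or isoform of the 6 genes passed the threshold of 0.05 for the adjusted p (edgeR quasi-likelihood test with Benjamini-Hochberg adjustment over all features), and none did by DESeq2, by limma or under any other setting tried. Of the 64 circRNA entries of the hosts, 21 had reads in at least 3 of the 6 libraries and were tested among 3275 entries. For all tested entries, 0.0305% passed, which is 1 entry. At an unadjusted p under 0.05 stood 1 of the 21 entries of the hosts, against 4.95% of all tested entries, and the groups did not overlap for 1 of 21, against 11.0% of all. That one was circRNA4140, a minor Tulp4 circle with 2, 0 and 3 reads in control, against 7, 4 and 3 in PS_high, named here after its values were seen. These shares are near or below the background.

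Among the 6 leading circles, the log2 difference (PS_high minus control) was 0.58 for Hnrnpu (SE 0.29), 0.24 for Tulp4 (SE 0.24), 0.12 for Rps6kc1 (SE 0.30), 0.10 for Acer3 (SE 0.28), 0.10 for Ppp1cb (SE 0.29) and 0.03 for Strbp (SE 0.24). The adjusted p of edgeR was 0.976 for each of them. All 6 values were above 0, but the median over all 3275 tested entries was 0.15 under this scaling by library totals, so 4 of the 6 lay below the general shift. With TMM factors computed from the circRNA counts, the median of all entries was -0.00. The differences of Strbp, Acer3, Rps6kc1 and Ppp1cb were then -0.11, -0.07, -0.06 and -0.06, whereas Hnrnpu and Tulp4 stayed above 0. Directions other than those of Hnrnpu and Tulp4 thus depended on the scaling.

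The Hnrnpu circle had the largest difference of the leading circles. Its level was 590.0 ± 149 SRPBM (SD, n = 3) in control and 886 ± 277 SRPBM (SD, n = 3) in PS_high, and the lowest PS_high library (624) lay below the highest control library (760.0). The fold was 1.499 with a 95% interval of 1.002 to 2.24, and the unadjusted p of the edgeR model was 0.0491. The unadjusted p was 0.0659 with DESeq2 and 0.0744 in edgeR under the stricter filter on reads. With TMM factors the log2 difference was 0.40 (edgeR, unadjusted p 0.123). The unadjusted p was 0.0576 with merged junction entries and 0.0589 with the replicate block (edgeR). Without PS_high replicate 1 the log2 difference was 0.33 (edgeR, unadjusted p 0.308). The unadjusted p stayed under 0.05 with limma on log2 SRPBM (0.0457) and in edgeR without a filter (0.0461). With other libraries left out (edgeR), it was 0.0428 without control replicate 1 and 0.0117 without PS_high replicate 3. It was 0.0789 without control replicate 2, 0.144 without control replicate 3 and 0.122 without PS_high replicate 2. The linear RNA of Hnrnpu gave a log2 difference of 0.24 (SE 0.22), from 395, 278 and 340 CPM in control, against 509, 306 and 378 CPM in PS_high. PS_high replicate 1 was the highest library of both the circle and the linear RNA.

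For the remaining leading circles, the 95% intervals show which changes the data could not tell from none. The fold was 1.02 (0.736 to 1.43) for Strbp, 1.18 (0.844 to 1.65) for Tulp4 and 1.07 (0.724 to 1.59) for Acer3. It was 1.08 (0.712 to 1.65) for Rps6kc1 and 1.07 (0.713 to 1.61) for Ppp1cb. Without PS_high replicate 1, the differences of Acer3, Rps6kc1 and Ppp1cb were -0.19, -0.21 and -0.01 on the log2 scale. The second circles gave 0.23 (SE 0.36) for mmu_circ_0009939 of Strbp, 0.48 (SE 0.38) for circRNA4141 of Tulp4, -0.14 (SE 0.49) for mmu_circ_0000133 of Rps6kc1 and -0.30 (SE 0.84) for circRNA4071 of Acer3. For single circles the p-values rest mostly on a spread shared by circles of like abundance (39.3 prior against 4 residual degrees of freedom), and not on the spread of the circle itself.

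Summing all circles of a gene did not alter this. The log2 difference was 0.57 for Hnrnpu (SE 0.29), 0.26 for Tulp4 (SE 0.26), 0.17 for Ppp1cb (SE 0.29), 0.07 for Strbp (SE 0.26), 0.03 for Acer3 (SE 0.28) and 0.01 for Rps6kc1 (SE 0.28). None of the 6 hosts stood at an unadjusted p under 0.05, against 4.31% of the 2365 host genes tested, and 0.0% of all host genes passed after adjustment. The median of the 6 differences was 0.12 and that of all host genes 0.10. The p-values of these sums also rest mostly on a shared spread (74.0 prior against 4 residual degrees of freedom).

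Of the linear RNA of the hosts, that of Tulp4 differed most between the groups. Tulp4 had 383, 419 and 387 CPM in control, against 580.1, 580.1 and 430.0 in PS_high, so that all PS_high libraries lay above all control libraries. Its log2 difference was 0.42 (SE 0.16), or a fold of 1.34 with a 95% interval of 1.04 to 1.73, with an unadjusted p of 0.0308 and an adjusted p of 0.9997 in edgeR. The size of the difference depended on the isoforms counted and on the measure. With annotated isoforms only it was 0.86 (edgeR, unadjusted p 0.0613), and with limma on the summed FPKM it was 0.16 (unadjusted p 0.574). These were the highest and the lowest value of 14 alternatives, all of them above 0. By FPKM the groups overlapped, with 31.2, 57.9 and 31.3 in control, against 44.3, 51.6 and 34.7 in PS_high, and control replicate 2 was the highest library. It was the only one of the 6 hosts with an unadjusted p under 0.05, against 2.73% of the 20272 genes tested, and the only one whose groups did not overlap, against 7.09% of all. After adjustment 0.0247% of all genes passed, which is 5 genes.

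The other hosts gave log2 differences of 0.24 for Hnrnpu, 0.12 for Strbp (SE 0.24), 0.06 for Ppp1cb (SE 0.14), -0.05 for Rps6kc1 (SE 0.14) and -0.07 for Acer3 (SE 0.18). Strbp varied most between libraries of 1 group, with 972, 608 and 607 CPM in control, against 888, 881 and 615 in PS_high. Rps6kc1 varied least, from 59.9 to 71.8 CPM over all 6 libraries. The 95% interval of its fold was 0.770 to 1.21, that of Ppp1cb 0.822 to 1.31 and that of Acer3 0.716 to 1.27. In bulk tissue, fewer cells of a type and less RNA per cell cannot be told apart.

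Relative to its own linear RNA, no circle of the 6 hosts passed the test. The log2 difference of the circle with the host count as offset was 0.36 for Hnrnpu (SE 0.32), 0.18 for Rps6kc1 (SE 0.33), 0.14 for Acer3 (SE 0.32), 0.02 for Ppp1cb (SE 0.33), -0.11 for Strbp (SE 0.29) and -0.18 for Tulp4 (SE 0.30). Among the 21 tested entries 0 stood at an unadjusted p under 0.05, against 5.22% of the 3144 entries tested this way, and 0.0636% of all passed after adjustment. The prior degrees of freedom of this fit were infinite. Its SEs and p-values thus rest on a spread shared between circles and not on that of the circle itself. For Tulp4 the value was below 0 in all settings, as far as -0.59 with annotated isoforms only, since the linear RNA was further apart than the circle. The coding Tulp4 isoform ENSMUST00000039655 is annotated to start at chr17:6138148, inside the circle and downstream of its acceptor edge at 6137212. The linear count of the offset includes this isoform, and its part in the value was not tested. For Hnrnpu it was above 0 in all settings, from 0.18 to 0.55.

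**Figure D4:**
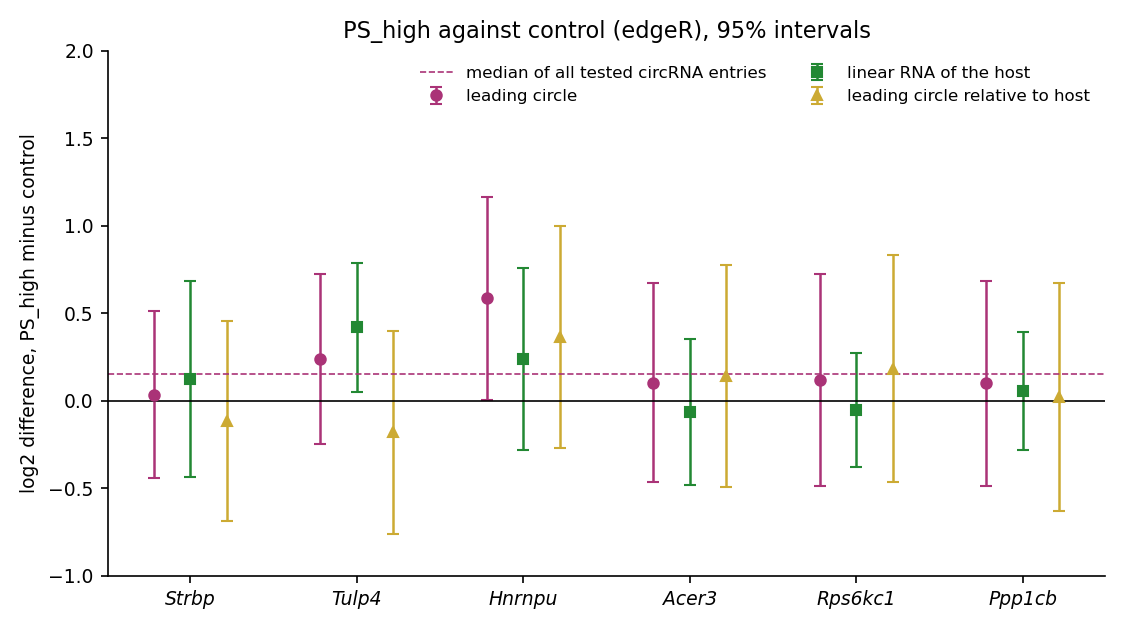
Log2 difference of PS_high minus control for the leading circle (purple circles), the linear RNA of the host (green squares) and the circle relative to its host (yellow triangles), from edgeR fits over all features; bars are 95% intervals. The solid line marks 0 and the dashed line the median of all tested circRNA entries (0.15). Only the intervals of the Hnrnpu circle (from a fold of 1.002) and of the linear RNA of Tulp4 lie above 0 in these fits; the unadjusted p of each rose above 0.05 under several other settings, and neither passed after adjustment.

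Some single isoforms of the hosts gave larger differences than the sum of their gene, and others smaller ones. Of the 84 isoforms 52 passed the FPKM filter and were tested among 69333. None passed after adjustment (0.00433% of all did). An unadjusted p under 0.05 was seen for 2 of 52, against 3.58% of all, and non-overlapping groups for 5 of 52, against 8.16% of all. These shares are near the background, and the isoforms named below are the extremes of the 52. The main coding isoform of Tulp4, ENSMUST00000039655 with 14 exons, had 6.19, 9.05 and 10.4 FPKM in control, against 24.7, 20.2 and 11.6 in PS_high. All PS_high libraries were above all control libraries, and the log2 difference was 1.15 (SE 0.35, unadjusted p 0.0199 in edgeR). It made up 24.7%, 30.7% and 37.8% of the counts of Tulp4 in control and 67.5%, 49.7% and 38.1% in PS_high, while the assembled isoform MSTRG.16104.14 held 31.7% to 38.5% in control and 6.65%, 16.0% and 37.2% in PS_high. PS_high replicate 3 was like the control libraries in both.

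In Hnrnpu an assembled isoform of 5 exons, MSTRG.2641.3, was lower in all PS_high libraries, and is named here after its values were seen. It spans chr1:178321108-178330320 and thereby the region of the leading circle. Its level was 5.43, 4.66 and 5.35 FPKM in control, against 0.629, 1.43 and 2.37 in PS_high. The log2 difference was -1.77 (SE 0.53), with an unadjusted p of 0.0180 and an adjusted p of 0.99998 in edgeR. Over all settings its adjusted p was lowest with DESeq2, at 0.0516. The isoform made up 6.53% to 7.40% of the counts of the gene in control and 0.61% to 2.75% in PS_high, so the sum over the gene was hardly touched. The other isoforms whose groups did not overlap were MSTRG.16104.6 of Tulp4, the retained-intron ENSMUST00000160891 of Rps6kc1 and ENSMUST00000151258 of Acer3, all higher in PS_high and the last pair with under 2 FPKM in every library.

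Estimated counts also jumped between isoforms from library to library. Of the 84 isoforms, 7 had 0 counts in at least 1 library and at least 300 in another. The main coding isoform of Rps6kc1, ENSMUST00000061611, had 2503, 1630 and 1934 counts in control, against 1626, 0 and 1669 in PS_high, although the gene as a whole had 2644 counts in the library with 0. MSTRG.29440.5 of Ppp1cb had 3468 counts in PS_high replicate 1 and none elsewhere, ENSMUST00000152672 of Tulp4 had 3671 in control replicate 2 and none elsewhere, and ENSMUST00000161769 of Hnrnpu had 1358 in PS_high replicate 1 and none elsewhere. Reads shared by isoforms are divided between them in such estimates, and the part of this division in the isoform differences was not tested. The stable case was Ppp1cb outside PS_high replicate 1: its coding isoform ENSMUST00000015100 held 97.7% to 98.5% of the counts in the other 5 libraries and 82.0% in that one.

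**Figure D5:**
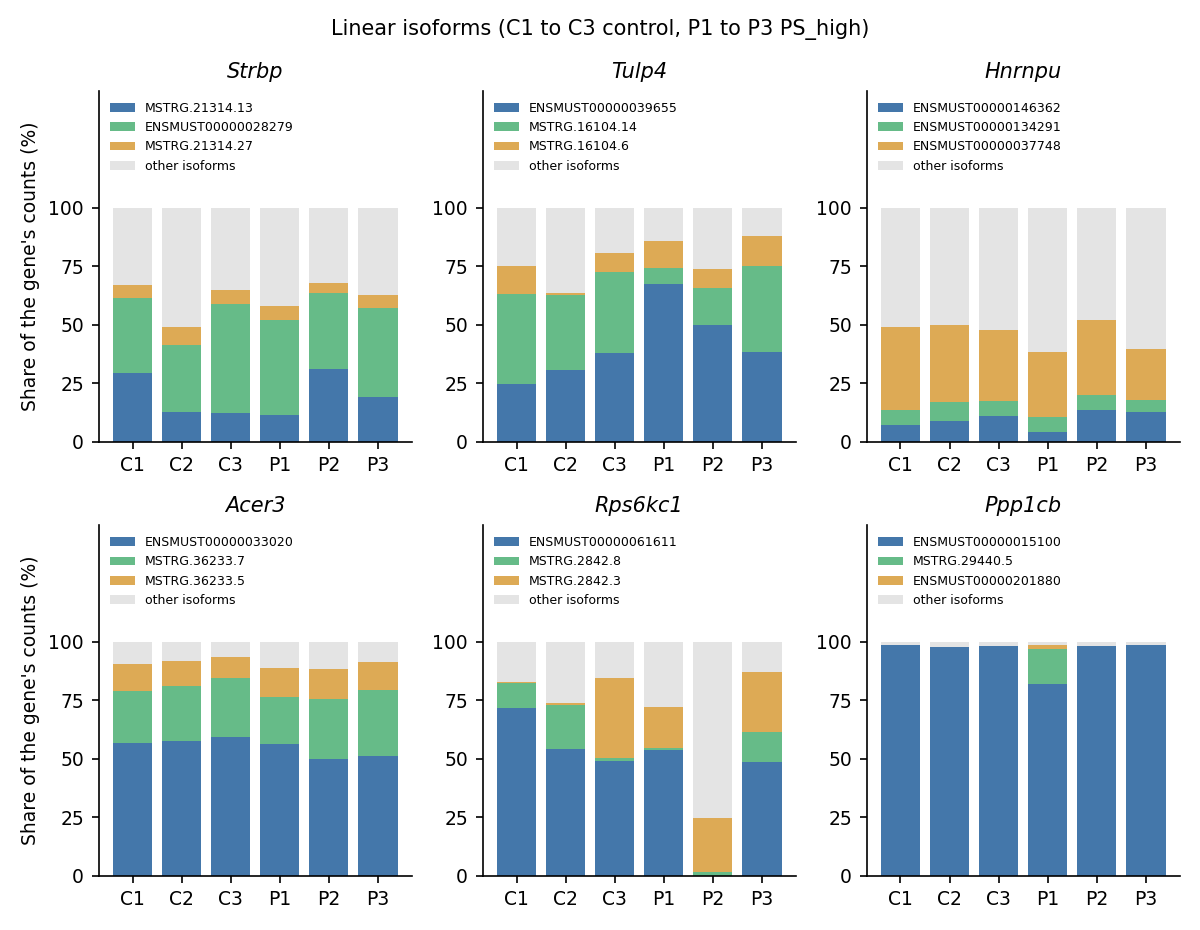
Share of the estimated counts of each host held by its 3 linear isoforms with the highest mean FPKM (coloured) and by all others (grey), in percent, for control (C1 to C3) and PS_high (P1 to P3) libraries. The coding isoform ENSMUST00000039655 of Tulp4 holds 24.7% to 37.8% in control and 38.1% to 67.5% in PS_high, and ENSMUST00000061611 of Rps6kc1 is at 0.0% in P2.

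Close relatives of several hosts made few or no circles in the same libraries. The other catalytic subunits of protein phosphatase 1, Ppp1ca (35.6 FPKM) and Ppp1cc (15.7 FPKM), had 0 back-splice reads, against 442 for Ppp1cb (54.3 FPKM). Tub and Tulp3 had 3 and 0 reads, and Hnrnpul1 and Hnrnpul2 had 0 each. In the ceramide group the circles other than those of Acer3 lay mainly in Cers6 (43 reads), a ceramide synthase, and Asah2 (22 reads), a neutral ceramidase, while the alkaline ceramidase Acer2 and the acid ceramidase Asah1 had 0. Among S6 kinases Rps6ka5 had 96 reads and Rps6kb1 20, against 581 for Rps6kc1. The hosts were chosen for their circles, so these counts describe how uneven circle formation was within a family and test nothing.

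The linear RNA of these families did not pass the test in any list. In the tubby family, Tub (-0.11) and Tulp3 (-0.12) were measured and 0 of 2 passed. In the hnRNP U and nuclear scaffold list 3 were higher and 3 lower (median 0.07), and among the enzymes of ceramide and sphingosine turnover 7 of 15 were higher (median -0.02). Of the S6 kinases 2 of 9 were higher (median -0.10), and of the protein phosphatase 1 subunits and partners 8 of 14 (median 0.04). None had an unadjusted p under 0.05 in these 5 lists; the smallest were 0.0716 for Cers4, a ceramide synthase, and 0.111 for Ppp1cc (unadjusted, edgeR). The median over all 20272 genes was -0.01.

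Factors of circle formation and decay were followed as a list of their own. Of 32 symbols 29 were measured above the filter, 20 were higher and 9 lower in PS_high, the median was 0.04, and none passed after adjustment. Adarb1, an RNA-editing enzyme acting on duplexes, had a log2 difference of -1.13, from 163 ± 20.4 CPM (SD, n = 3) in control to 74.6 ± 19.0 CPM (SD, n = 3) in PS_high. Its unadjusted p in edgeR was 0.00105 and its adjusted p 0.789, and it was the only one of the 29 under 0.05 before adjustment, against 2.73% of all genes tested, a share near the background. Qk, an RNA-binding protein known to promote circles, had 940 ± 199 CPM (SD, n = 3) in control and 967 ± 144 in PS_high, and Dhx9, a helicase that opposes circle formation, had 184 ± 2.3 and 203 ± 13.9.

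Across the 6 libraries, the leading circles varied along with other abundant circles. By Pearson r of log2 levels against 82 other circles with a mean of at least 20 reads, the Strbp circle was most like a circle of Zfp532 (0.93), the Tulp4 circle most like that of Slc8a1 (0.92) and the Hnrnpu circle most like one of Rnf169 (0.91). The Acer3 and Rps6kc1 circles were each other's closest match (0.92), followed for both by a circle of Gucy1a2 (0.90 and 0.88). The Ppp1cb circle had the weakest best match, with Akap7 (0.82). These correlations are the highest of 82 over 6 points that share libraries and depth, and serve as a description.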

How the data were processed

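The deposited table of circRNAs holds the count of back-splice reads and SRPBM, a signal that equalled the count times 1 constant per library; no source used here names the program that called the circles. The deposited linear table holds FPKM and an estimated count per isoform; HISAT2, StringTie and TopHat are named in the submitters' processing notes, without versions. Libraries came from Ribo-Zero treated total RNA with a stranded kit, per the labels' protocols.

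Gene counts were summed over isoforms of class codes =, j, c, o and e. edgeR 4.0.16 in R 4.3.3 fitted quasi-likelihood models over all circRNA entries or host genes with reads in at least 3 of 6 libraries (library totals recovered from SRPBM), and over all genes or isoforms averaging 0.5 FPKM or more (TMM). The estimated counts were whole numbers already. Circles relative to their host used the linear count plus 1 as offset. p-values were adjusted over all features of a fit (Benjamini-Hochberg, 0.05). Alternatives were DESeq2 1.42.0, limma 3.58.1 on log2(FPKM + 0.1), log2(FPKM + 1) or log2 SRPBM, other scalings and filters, annotated isoforms, intronic isoforms, merged junction entries (added after seeing the data) and each library left out. Scripts were tested on simulated data.

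Hosts, related gene lists and markers were chosen with earlier results of these data known. Named were each host's leading circle, up to 3 further circles with a mean of at least 5 reads, and its 3 highest isoforms by FPKM. The 2 most alike circles and list genes by smallest p were named too. Qk, Dhx9 and the relatives given with their circle reads were not named by p. The list of genes related to Strbp is not reported here. No paper was used. Junction sequences were not analysed here, since no genome of the files' build was used.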

Additional observations from a re-analysis of the deposited data

How the results depend on the processing

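No circle, host gene or isoform of the 6 genes passed the adjusted threshold under any alternative. Of 504 values for named items under alternatives, 451 kept their direction and 53 turned it. Over all features, the number past the threshold was 1 for circRNA entries, and it was 2 with TMM factors, 2 with merged junction entries, 4 without a filter, 3 with the replicate number as a block (replicate block), and 0 with limma or with a mean of at least 5 reads. Relative to the host it was 2, and 1 with DESeq2, 1 with TMM factors, 9 with annotated isoforms only, 4 with the replicate block and 0 with a mean of at least 5 reads. For circles summed per host it was 0, and 2 with TMM factors and 1 without a filter or with the block. For linear genes it was 5, and 47 with DESeq2, 2 without a filter and 0 with annotated isoforms only, with limma at both pseudocounts and with the block. For isoforms it was 3, and 991 with DESeq2, 22 and 20 with limma (pseudocounts 0.1 and 1), and 0 without a filter and with the block. Leaving out 1 library in turn gave 0 to 3 entries, 1 to 4 relative to the host, 0 to 1 for circles summed per host, 0 to 17 genes (17 without PS_high replicate 1) and 0 to 1 isoforms. The cause of these shifts was not tested.

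With TMM factors of the circRNA counts, the log2 differences that turned were those of the leading circles of Strbp (-0.11), Acer3 (-0.075), Rps6kc1 (-0.055) and Ppp1cb (-0.064), of the sums for Strbp (-0.064), Acer3 (-0.13) and Rps6kc1 (-0.14), and, relative to the host, of Acer3 (-0.026), Ppp1cb (-0.14), mmu_circ_0009939 of Strbp (-0.12) and circRNA4141 of Tulp4 (-0.072). Annotated isoforms only turned circRNA4141 relative to the host (-0.36) and linear Ppp1cb (-0.024), intronic isoforms turned linear Strbp (-0.0017), and limma turned linear Acer3 (0.038 and 0.036 at pseudocounts 0.1 and 1). Same-numbered samples correlated at 0.21, 0.11 and 0.06 in their deviations from the group means. The replicate numbers therefore served as names only, although every sample correlated best with its own number, which is a hint from the data and not from the design. The block turned the sums of Acer3 (-0.010) and Rps6kc1 (-0.0027) and no other named value.

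With 1 library left out in turn, the leading circles ranged from -0.10 to 0.16 (Strbp), -0.19 to 0.27 (Acer3), -0.21 to 0.36 (Rps6kc1) and -0.069 to 0.24 (Ppp1cb), and further circles from -1.27 to 0.25 (circRNA4071) and -0.41 to 0.11 (mmu_circ_0000133). Relative to the host the ranges were -0.29 to 0.15 (Strbp), -0.14 to 0.40 (Rps6kc1), -0.19 to 0.21 (Ppp1cb), -0.18 to 0.39 (mmu_circ_0009939), -0.16 to 0.24 (circRNA4141), -1.02 to 0.23 (circRNA4071) and -0.39 to 0.11 (mmu_circ_0000133). Sums ranged from -0.077 to 0.19 (Strbp), -0.27 to 0.18 (Acer3) and -0.23 to 0.22 (Rps6kc1), linear genes from -0.24 to 0.014 (Acer3) and -0.017 to 0.14 (Ppp1cb), and isoforms from -0.15 to 0.036 (ENSMUST00000015100) and -0.40 to 1.09 (MSTRG.21314.13). At the depth of these libraries, with 427 to 1236 reads per leading circle, the 95% intervals of the fold of a leading circle span 0.71 to 2.24.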
